A study of Mus musculus with 8 samples.

Results

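miR-21 is made from a single hairpin, Mir21a in the mouse, whose 5p arm gives miR-21a-5p and whose 3p arm gives miR-21a-3p. Both arms were followed here by name, as the rows mmu-miR-21a-5p and mmu-miR-21a-3p, which are 2 of the 1978 mature names in the deposited small RNA counts and 2 of the 877 with a count above 0. The samples were splenic CD8+ T cells of mice, sorted on CD8, CD4, CD44 and CD122 per the labels' protocols, in 4 groups of 2 libraries: mCre MP, WT MP, mCre TN and WT TN. mCre and WT are the genotypes and MP and TN the sorted subsets, as the sample titles spell them; the design text writes VM in place of MP, and in this field TN usually means true naive and VM virtual memory cells, a memory-like population with high CD44 and CD122 that has not met its antigen. The title of the series names miR-29 and the recombinase Cre and does not name the sequence that Cre removes or the promoter that drives it; the protocols cover adult and neonatal spleens without giving the age per sample. Nothing in the labels ties the libraries of a group to separate mice, so the p-values describe the spread among these libraries only, which may be technical.

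Of a miRNA hairpin, the arm that is loaded into Argonaute, the guide, is kept and represses messenger RNAs that pair with its seed, bases 2 to 8, while the other arm, the passenger, is mostly degraded. miR-21-5p is the guide of its hairpin in most tissues. It is induced when T cells are activated, through AP-1 and STAT3 sites at its promoter, and its known targets include Pdcd4 and the Spry genes, which restrain translation and receptor signalling. The passenger miR-21-3p is scarce in most cells, and the ratio of the arms is a measure of strand choice and strand stability together.

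The mature arms and the pair of mouse miRNAs that share their name stem are printed from RefSeq (build GRCm38.p6), because the counting of near-identical sequences bears on every value that follows; capitals mark the seed, bases 2 to 8 from the 5′ end.
miR-21a-5p: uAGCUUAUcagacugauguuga
miR-21a-3p: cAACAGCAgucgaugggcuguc
miR-21b: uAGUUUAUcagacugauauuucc
miR-21c: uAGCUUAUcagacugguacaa
miR-21a-5p lies at chr11:86584120-86584141 and miR-21a-3p at chr11:86584082-86584103, both on the minus strand. Their hairpin, 92 bases long, sits on the same strand inside an exon of a protein-coding transcript of Vmp1, a gene of autophagy, in a stretch that GENCODE M21 annotates as untranslated. In the fold of lowest free energy by RNAfold, at -46.2 kcal/mol, 19 of the 22 bases of miR-21a-5p paired with miR-21a-3p. The first 4 bases of miR-21a-5p held 2 GC, 1 AU and 1 GU pairs, and the first 4 of miR-21a-3p held 2 GC and 2 AU pairs. Of the 1679 mature mouse names in the RefSeq table, all of which are in the count table, miR-21c alone shared the seed of miR-21a-5p, and none shared that of miR-21a-3p. The rest of the 1978 names in the count table are not in RefSeq, and their seeds were not compared.

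miR-21b and miR-21c were close to absent. Counting positions from the 5′ end of miR-21a-5p, miR-21b carried C4U in the seed and G18A, G21U and A22C beyond it, and miR-21c carried A16G, G18A, U19C, U20A and G21A. In the deposited values miR-21b held 0.5 to 13 counts per library and miR-21c 0 to 3. Together they came to 0.00221% to 0.00614% of the miR-21a-5p value of the same library. The deposited miR-21a-5p values were whole, to within 0.011, in 2 of 8 libraries, and those of miR-21a-3p in all 8. Had every miR-21b and miR-21c count been a miR-21a-5p read, the level of miR-21a-5p would change by no more than those shares.

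The libraries held 1936597 to 5230975 counts, a 2.7-fold range. miR-29a-3p, read because the title names miR-29, took 0.0734% and 0.126% of the counts in mCre MP replicates 1 and 2, against 0.349% and 1.09% in WT MP. It took 0.162% and 1.52% in mCre TN, against 0.340% and 0.0735% in WT TN. The libraries labelled mCre TN replicate 2 and WT TN replicate 2 thus ran against their labels, if mCre lowers miR-29. The labels do not name the sequence that Cre removes, and why these libraries did so was not tested. Values without both of these libraries are given beside the comparisons of the members that use TN. Among markers of other cells, the myeloid miR-223-3p held 0 to 30 counts in MP and 4 to 29 in TN, and the erythroid miR-451a 0 to 33 counts in MP and 3 to 16 in TN. The lymphocyte list (miR-150-5p, miR-342-3p, both miR-142a arms and miR-181a-5p, 5 of 5 detected) summed to 40581 to 106423 CPM in MP and 47536 to 178585 CPM in TN, where CPM is the count scaled to library total, here without TMM.

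miR-21a-5p was among the most abundant miRNAs of these cells and was higher in every MP library than in every TN library. It took 3.73% and 6.04% of all counts in mCre MP replicates 1 and 2 and 7.91% and 5.22% in WT MP. In TN it took 2.43% and 1.77% in mCre and 2.24% and 0.873% in WT. Its rank by count was 5 to 7 in the MP libraries and 9 to 16 in the TN libraries. Averaged over the 8 libraries it had rank 6, at 3.78% (range 0.873% to 7.91%), after miR-92a-3p and miR-150-5p and before let-7i-5p (3.13%) and let-7c-5p (3.02%). Counting error was small at this depth: the half-width of the 95% Wilson interval was 0.368% to 1.50% of the value, counting error only, while the coefficient of variation between the libraries of a group ran from 0.115 to 0.44.

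**Figure D1:**
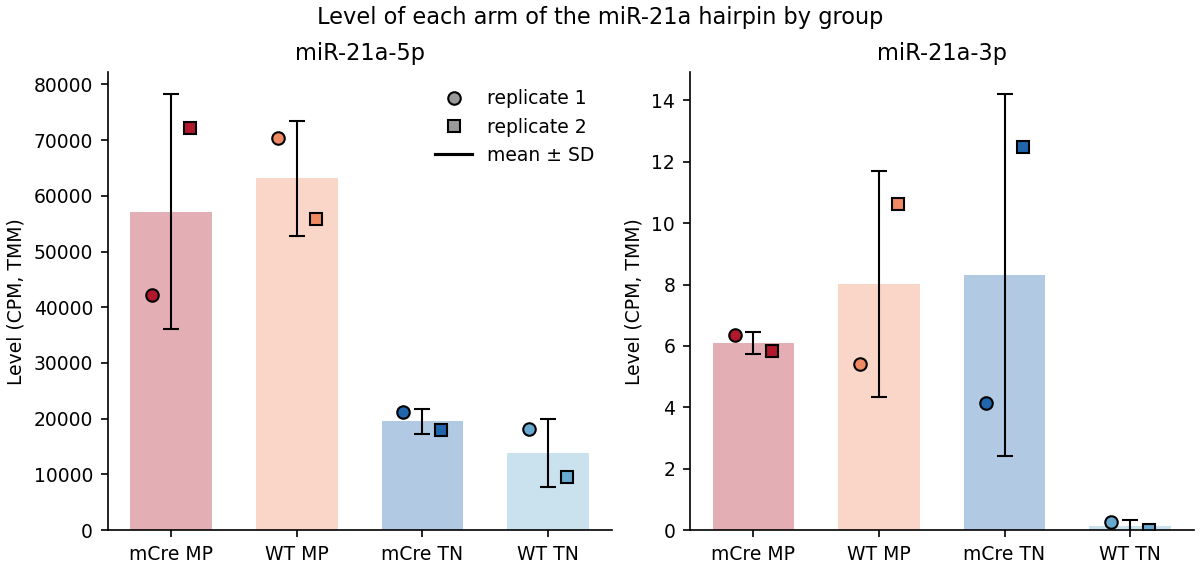
Level of miR-21a-5p (left) and miR-21a-3p (right) in CPM after TMM scaling, by group; bars are means, error bars SD (n = 2), and points single libraries by replicate number. All 4 MP libraries lie above all 4 TN libraries for miR-21a-5p (lowest MP 42239.5 CPM, highest TN 21121 CPM), while for miR-21a-3p both WT TN libraries lie near 0 and the other groups overlap.

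After scaling by TMM, which corrects library size for composition, miR-21a-5p had 42239.5 and 72079 CPM in mCre MP and 70418 and 55802 CPM in WT MP, against 21121 and 17942 CPM in mCre TN and 18149 and 9528 CPM in WT TN. The subsets did not overlap, and the lowest MP library stood 2.0-fold above the highest TN library. The group means ran in the order WT MP (63110.1 ± 10335), mCre MP (57159 ± 21099.8), mCre TN (19531 ± 2248) and WT TN (13839 ± 6096 CPM; SD, n = 2 each). Within MP and within TN the genotypes overlapped, so only the step between the subsets exceeded the spread of neighbouring groups. The plot of both arms by group shows that step.

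Over both genotypes, miR-21a-5p averaged 60135 ± 13993 CPM in MP libraries and 16685 ± 4987 CPM in TN libraries (SD, n = 4 each). It rose 3.65-fold, by 1.87 ± 0.36 in log2 terms (SE, edgeR quasi-likelihood test, adjusted p = 0.0392), in an additive fit of subset and genotype. It was 1 of 9 miRNAs past the adjusted threshold of 0.05 among 382 tested (2.36%), 5 of them higher in MP (1.31%), and ranked 6 by p. Complete separation with MP higher was less rare, at 26 of the 382 (6.81%). By DESeq2 the log2 change was 1.78 (adjusted p = 0.000191), and 26 miRNAs passed (6.81%). In edgeR the call did not survive total count scaling (1.65, adjusted p = 0.102) or the replicate number as a block (1.90, adjusted p = 0.0733). Nor did it survive leaving out any of 7 of the 8 libraries (adjusted p from 0.0614 to 0.258), the exception being WT TN replicate 2 (0.021). Leaving out both TN replicate 2 libraries, which was decided after seeing the data, gave a log2 change of 1.50 (edgeR adjusted p = 0.0243).

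The share of let-7 differed between libraries, 60.0% to 63.9% of counts in mCre MP, 43.4% and 46.0% in WT MP, 43.7% and 52.0% in mCre TN, and 51.2% and 69.4% in WT TN, and a dominant family changes every other share. Of the counts outside let-7, miR-21a-5p took 10.3% and 15.1% in mCre MP and 13.97% and 9.66% in WT MP, against 5.07% and 3.15% in mCre TN and 4.59% and 2.86% in WT TN. The subsets stayed apart on this scale, with the lowest MP library 1.91-fold above the highest TN library. As shares of all counts the same gap was 1.53-fold. The median log2 change of all 382 miRNAs was -0.042 with TMM, -0.15 with RLE factors and -0.23 with total count scaling; relative to that median, miR-21a-5p changed by 1.91, 1.93 and 1.87. These are bulk libraries of sorted cells, so more cells of a type that holds much miR-21 and more miR-21 per cell cannot be told apart. Beside this result, the sum of the myeloid list (miR-223-3p and miR-223-5p, 2 of 2 detected) was 1.40 to 13.7 CPM in MP and 6.94 to 10.3 CPM in TN. The endothelial and stromal list, with 8 of 8 members detected, held 37.8 to 120 CPM in MP and 24.3 to 62.9 CPM in TN, led by miR-126a-3p and miR-143-3p, and its part in the result was not tested. Detected means a count above 0 in any library. Of this list miR-145a-5p, miR-199a-5p and miR-214-3p held at most 5, 2 and 2 counts in a library, and the erythroid miR-144-3p at most 1. The epithelial list, 5 of 5 detected, held 1984 to 4241 CPM in MP and 1277 to 3904 CPM in TN; the erythroid list, 3 of 3, 0 to 10.01 CPM in MP and 1.55 to 5.62 CPM in TN; and the liver and muscle list, 4 of 4, 10.5 to 38.8 CPM in MP and 17.1 to 33.05 CPM in TN, and their part was not tested either.

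Within each genotype the difference had the same direction and did not pass. In mCre it was 1.55 ± 0.47 on the log2 scale (SE, 2.93-fold; edgeR adjusted p = 0.183), and in WT 2.19 ± 0.48 (4.56-fold; edgeR adjusted p = 0.175). edgeR called 0 of 382 miRNAs in either comparison, with 31 (8.12%) in WT and 82 (21.5%) in mCre at an unadjusted p under 0.05. DESeq2 made 10 calls in WT (2.62%) and 41 in mCre (10.7%). DESeq2 put miR-21a-5p past the threshold in WT (adjusted p = 0.0438) and not in mCre (0.0718). Without both TN replicate 2 libraries the change was 1.31 in mCre (edgeR adjusted p = 0.122) and 1.69 in WT (edgeR adjusted p = 0.0779), where edgeR called 30 and 14 of 433 miRNAs. The number of edgeR calls in mCre was 56 of 435 without WT TN replicate 1 and 41 of 437 without WT TN replicate 2, and in WT 6 of 435 without WT TN replicate 1. Libraries of the subsets that did not overlap, with MP higher, were common with 2 against 2, at 26.2% of miRNAs in WT and 29.6% in mCre. Between libraries with the same number, MP stood above TN by 2.0-fold and 4.02-fold in mCre replicates 1 and 2, and by 3.88-fold and 5.86-fold in WT. The difference between the genotypes in this effect was -0.64 ± 0.65 (SE, mCre minus WT, edgeR adjusted p = 0.631), with an approximate 95% interval of -1.91 to 0.63 that includes 0, and was -0.38 without both TN replicate 2 libraries.

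Against WT, mCre cells had no detectable change in miR-21a-5p in either subset. In MP it averaged 57159 ± 21099.8 CPM in mCre and 63110.1 ± 10335 CPM in WT, a log2 change of -0.14 ± 0.46 (SE, edgeR adjusted p = 0.902). In TN it averaged 19531 ± 2248 CPM in mCre and 13839 ± 6096 CPM in WT (SD, n = 2 each), a log2 change of 0.50 ± 0.46 (SE, edgeR adjusted p = 0.957). Over both subsets the change was 0.18 ± 0.35 (SE, edgeR adjusted p = 0.992), with an approximate 95% interval of -0.51 to 0.86. Without both TN replicate 2 libraries the change was 0.21 in TN and -0.043 over both subsets. edgeR and DESeq2 called 0 of 382 miRNAs in each of these comparisons, and edgeR had 41 at an unadjusted p under 0.05 in MP (10.7%), 12 in TN (3.14%) and 5 over both subsets (1.31%). edgeR called 63 of 433 in MP and 27 over both subsets once both TN replicate 2 libraries were left out, miR-21a-5p not among them (adjusted p = 0.83 in MP and 0.95 over both).

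**Figure D2:**
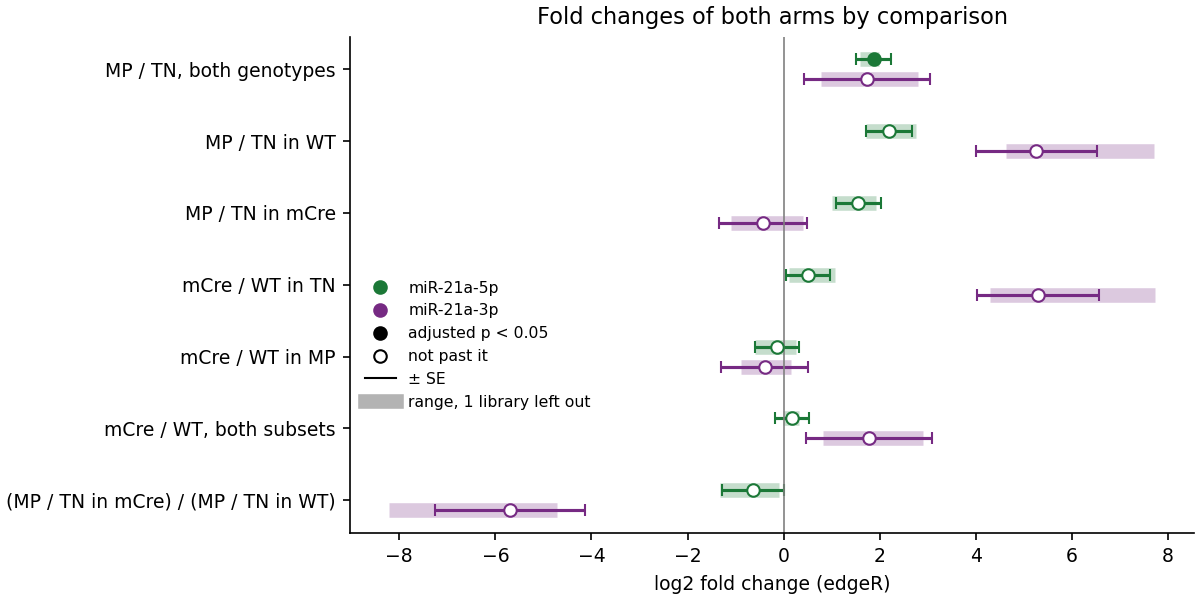
Log2 fold change of miR-21a-5p (green) and miR-21a-3p (purple) in each of the 7 comparisons, MP over TN or mCre over WT, with SE as error bars; pale bands span the values with each library left out in turn. The filled point, miR-21a-5p in MP against TN over both genotypes (1.87), is the only value past an adjusted p of 0.05, and the miR-21a-3p bands are widest where WT TN enters a contrast of groups (5.26, 5.30 and -5.69).

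Other miRNAs that rise on T cell activation were read beside miR-21a-5p, from a list of 14. It was written from general knowledge with earlier results of these data known. Of these, 10 were tested; miR-212-3p, miR-31-5p, miR-210-3p and miR-214-3p held 2 to 42 counts over all libraries and were removed by the filter on low counts. For MP against TN over both genotypes 8 of the 10 were higher, 1 passed the threshold upward and 0 downward. Over all 382 miRNAs edgeR called 9 (2.36%), 5 of them higher (1.31%). The median log2 change of the 10 was 1.06, beside -0.042 over all 382 miRNAs. The member that passed was miR-146a-5p, which restrains NF-kB by lowering Traf6 and Irak1, at 14405 ± 2218 CPM in MP and 2406 ± 864.7 CPM in TN (SD over 4 libraries each); its log2 change was 2.61 ± 0.37 (SE, edgeR adjusted p = 0.0137). miR-182-5p, which is induced by interleukin 2 in T cells, had the next smallest p, with 1.73 ± 0.39 (SE, edgeR adjusted p = 0.0602). Its cluster partners miR-183-5p and miR-96-5p had log2 changes of 1.83 and 1.50. miR-155-5p, needed for effector responses, had 1.27, miR-222-3p 0.85, miR-221-3p 0.28 and miR-146b-5p 0.011. miR-132-3p (-1.12) and miR-17-5p (-0.78) lay on the other side of 0. In WT 9 of the 10 were higher in MP (median 1.19, all miRNAs 0.047) and in mCre 6 of 10 (median 0.54, all miRNAs -0.18), with 0 past the threshold in either. For mCre against WT 0 members passed; the median was -0.14 in MP (4 of 10 higher, all miRNAs -0.23), -0.0024 in TN (5 of 10, all miRNAs 0.018) and -0.15 over both subsets (4 of 10, all miRNAs -0.093).

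The miRNAs whose level followed that of miR-21a-5p most closely over the 8 libraries, by Pearson correlation of log2 CPM, were miR-598-3p (r = 0.915, Spearman rho 0.743), miR-146a-5p (0.895, 0.619), miR-425-5p (0.883, 0.833), miR-1843a-5p (0.872, 0.762) and miR-182-5p (0.863, 0.762). The points share the split between MP and TN and the scaling of each library, so miRNAs that are higher in MP than in TN tend to score high. They differed in size: miR-598-3p averaged 12.9 CPM in MP and 0.211 CPM in TN, a log2 difference of 5.54 (edgeR adjusted p = 0.0303), while miR-425-5p averaged 386.2 CPM in MP and 266.8 CPM in TN, a difference of 0.54 (edgeR adjusted p = 0.647). miR-598-3p had very few reads in TN, so the size of its difference and its r depend on the prior count. miR-21a-3p, from the same hairpin, ranked only 30th by this measure among the other 381 (r = 0.643, rho 0.310).

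**Figure D3:**
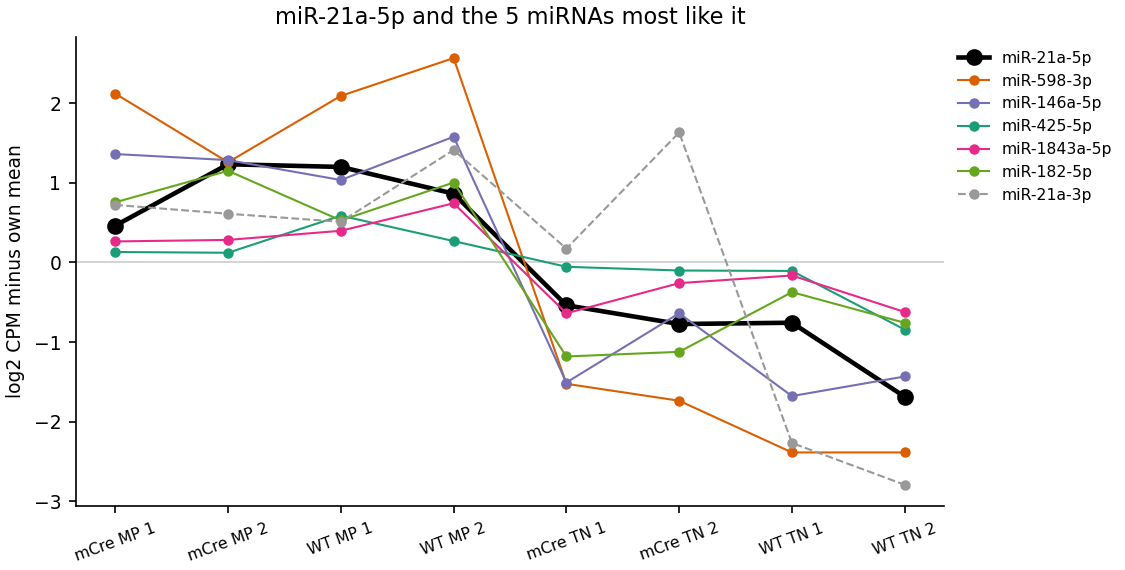
Log2 CPM of miR-21a-5p (black), the 5 miRNAs with the highest correlation with it and miR-21a-3p (dashed), each minus its own mean over the 8 libraries; lines only join the values of 1 miRNA. miR-21a-5p lies above its mean in the 4 MP libraries and below it in the 4 TN libraries, whereas miR-21a-3p lies below its mean only in both WT TN libraries.

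miR-21a-3p, the passenger arm, was scarce, with 148 reads over all libraries against 993755 of miR-21a-5p. It had 12 and 15 reads in mCre MP, 20 and 39 in WT MP, 25 and 36 in mCre TN, and 1 and 0 in WT TN. Only the WT TN libraries thus had fewer than 12 reads. In TMM-scaled CPM these were 6.36 and 5.84 in mCre MP, 5.40 and 10.6 in WT MP, 4.15 and 12.5 in mCre TN, and 0.268 and 0 in WT TN. A count of 0 allows up to 3 counts, which in WT TN replicate 2, the shallowest library, is 1.55 CPM before TMM scaling. The group means ran in the order mCre TN (8.32 ± 5.89), WT MP (8.02 ± 3.69), mCre MP (6.10 ± 0.362) and WT TN (0.134 ± 0.189 CPM; SD, n = 2 each), and the first 3 of these overlapped one another.

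No comparison of miR-21a-3p passed the threshold. MP against TN over both genotypes gave a log2 change of 1.74 ± 1.30 (SE, edgeR adjusted p = 0.687), with the subsets overlapping at 7.06 ± 2.41 CPM in MP libraries and 4.22 ± 5.82 CPM in TN libraries (SD, n = 4 each). It was 0.77 without WT TN replicate 1, 0.81 without WT TN replicate 2, 2.79 without mCre MP replicate 2 and 1.70 without both TN replicate 2 libraries. In WT, the 59 reads in MP and 1 in TN gave a ratio of 40.6 per library count, whose exact 95% bounds, for counting error, were 7.0 and 1629; the fitted change was 5.26 ± 1.26 (SE, edgeR adjusted p = 0.181), and its size depends on the prior count. Without both TN replicate 2 libraries it was 4.61 (edgeR adjusted p = 0.0816). In mCre the 27 reads in MP and 61 in TN gave a ratio of 0.694 (exact interval 0.424 to 1.11) and a fitted change of -0.43 ± 0.91 (SE, edgeR adjusted p = 0.781). The direction in mCre turned on 1 library: without mCre TN replicate 2 the change was 0.40.

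Between the genotypes, miR-21a-3p in TN had the smallest p of all 382 miRNAs and still missed the adjusted threshold, with a log2 change of 5.30 ± 1.27 (SE, edgeR adjusted p = 0.957). Both mCre TN libraries lay above both WT TN libraries, as they did for 15.7% of miRNAs. Without both TN replicate 2 libraries, which leaves 25 reads in mCre TN replicate 1 against 1 in WT TN replicate 1, the value was 3.79 (edgeR adjusted p = 0.666). Over both subsets mCre against WT gave 1.77 ± 1.30 (SE, edgeR adjusted p = 0.992), with overlap. That value was 0.81 without WT TN replicate 1, 0.91 without WT TN replicate 2, 1.14 without mCre TN replicate 2, 2.89 without mCre MP replicate 2 and 0.53 without both TN replicate 2 libraries. In MP the change was -0.39 ± 0.91 (SE, edgeR adjusted p = 0.85), with 27 reads in mCre and 59 in WT. The difference of the MP against TN effect between mCre and WT was -5.69 ± 1.56 (SE, edgeR adjusted p = 0.301, DESeq2 adjusted p = 0.059); edgeR called 0 of 382 for this term, while 54 had an unadjusted p under 0.05 (14.1%) and 18 passed in DESeq2 (4.71%). The difference was -4.22 (edgeR adjusted p = 0.669) without both TN replicate 2 libraries.

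The arm ratio needs no scaling between libraries, since both arms were read in the same one. Per 100000 hairpin reads, miR-21a-3p had 15.04 and 8.11 in mCre MP, 7.67 and 19.0 in WT MP, 19.7 and 69.5 in mCre TN, and 1.48 and 0 in WT TN. The Wilson 95% interval was 50.2 to 96.2 in mCre TN replicate 2, above the intervals of the other 7 libraries. In WT TN replicate 1 it was 0.26 to 8.36, below those of both mCre TN libraries, of mCre MP replicate 1 and of WT MP replicate 2. The 0 of WT TN replicate 2 stands for 16916 hairpin reads and allows up to 17.7 per 100000, so it cannot be told from most other libraries at this depth. A low ratio in WT TN thus rests on replicate 1.

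**Figure D4:**
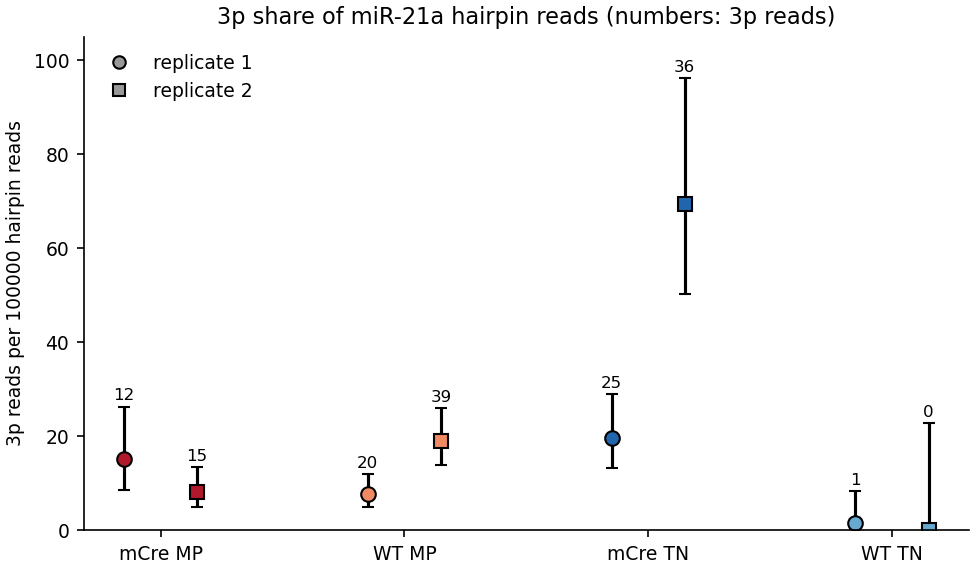
miR-21a-3p reads per 100000 reads of the hairpin in each library, by group, with Wilson 95% intervals (counting error only) and the number of 3p reads above each. mCre TN replicate 2 stands highest at 69.5, both MP groups lie between 7.67 and 19.0, and the interval of WT TN replicate 2, with 0 reads, reaches 22.7.

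No difference in arm ratio was detected between the subsets over both genotypes. The mean of log2((3p + 0.5)/(5p + 0.5)) was -13.04 ± 0.65 in MP libraries and -13.32 ± 2.36 in TN libraries (SD, n = 4 each; two-sided exact permutation p = 0.914, 1 after Benjamini-Hochberg adjustment over the 6 arm comparisons). In TN both mCre libraries lay above both WT libraries. With 2 against 2 such separation was common for levels, at 15.7% of miRNAs in that comparison. Its share over hairpins was not counted. The count model of both arms over 130 hairpins gave 0.13 ± 0.80 (SE, edgeR adjusted p = 1.00); edgeR called 0 of 130 there, with 2 at an unadjusted p under 0.05 (1.54%). mCre libraries averaged -12.23 ± 1.29 and WT libraries -14.12 ± 1.42 over both subsets, a difference of 1.89 (SD, n = 4 each; two-sided exact permutation p = 0.114, adjusted 0.5), where the smallest p that 4 against 4 can give is 0.0286. Without both TN replicate 2 libraries the difference was 0.99 between the genotypes (exact permutation p = 0.4) and 0.83 between the subsets (0.667). Pooled over libraries, the 3p share was 19.8 per 100000 in mCre and 10.9 in WT. It was 11.8 in MP and 23.5 in TN, the opposite order to the mean log2 ratios of the subsets.

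The genotypes were also set against each other within each subset. In MP, 27 of 264822 hairpin reads in mCre and 59 of 465428 in WT were 3p, 10.2 and 12.7 per 100000 (exact 95% intervals 6.72 to 14.8 and 9.65 to 16.4). In TN, 61 of 178958 in mCre and 1 of 84695 in WT were 3p, 34.1 and 1.18 per 100000 (26.1 to 43.8 and 0.0299 to 6.58). Within mCre TN, replicate 2 had 69.5 and replicate 1 had 19.7. Such intervals compare these reads, not the conditions. Over libraries, 2 against 2 cannot go below an exact permutation p of 0.333, which the TN comparison reached with a log2 difference of 3.88. The difference was 2.45 with a pseudocount of 2, and 3.18 without both TN replicate 2 libraries, where 1 library a group leaves no test. The count model (edgeR, arm by group terms) gave 4.80 ± 1.33 for mCre against WT in TN (SE, edgeR adjusted p = 0.0879), the smallest p of the 130; it called 0 hairpins there, with 4 at an unadjusted p under 0.05 (3.08%). In MP it gave -0.14 ± 0.98 (SE, edgeR adjusted p = 0.982), with 1 hairpin called (0.769%) and 14 at an unadjusted p under 0.05 (10.8%). Over both subsets it gave 1.70 ± 1.06 (SE, edgeR adjusted p = 0.959), with 0 hairpins called and 3 at an unadjusted p under 0.05 (2.31%).

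Between the subsets, the 3p share was compared within each genotype, and neither comparison passed. For how many other hairpins the libraries did not overlap was not counted. In mCre both MP libraries lay below both TN libraries, with a log2 difference of -1.71 (count model -1.75 ± 1.02, SE, edgeR adjusted p = 0.347), where 1 hairpin was called (0.769%) and 21 had an unadjusted p under 0.05 (16.2%). In WT the difference was 2.27 with a pseudocount of 0.5, where the libraries did not overlap. With a pseudocount of 2 it was 0.85 (exact permutation p = 0.667), and the libraries overlapped. Adding 2 to the 0 reads of WT TN replicate 2 lifts its ratio above that of WT MP replicate 1. Apart from the pseudocount, that 0 allows more than the 7.67 of WT MP replicate 1. The count model gave 3.19 ± 1.33 (SE, edgeR adjusted p = 1.00), where edgeR called 0 hairpins and 2 had an unadjusted p under 0.05 (1.54%). The difference between these effects, mCre minus WT, was -4.95 ± 1.68 in the count model (SE, edgeR adjusted p = 0.111), rank 5 by p of 130, where 1 hairpin was called (0.769%) and 15 had an unadjusted p under 0.05 (11.5%). The shifts of the mean log2 ratio were -0.81 in mCre and 2.48 in WT without both TN replicate 2 libraries.

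miR-21a was among the hairpins with the most one-sided arms. Of 773 hairpins with both arms named in the table, 82 had at least 100 reads of the 2 arms together in every library, and their minor arm took a median of 0.745% of hairpin reads. The minor arm of miR-21a took 0.0149%, and by mean log2 ratio of minor to major arm (-13.18, median of the 82 -7.24) it had rank 6 from the lowest. The next lower were miR-374b (-13.34) and miR-101b (-13.34), each with 0 minor reads, and miR-669c (-13.54), with 2. The next higher were let-7i (-13.11, 0.0225% minor), miR-192 (-12.50, 0 minor reads) and miR-101a (-12.40, 1 minor read). For hairpins with few minor reads the value reflects the depth of the major arm. Ranks 1 and 2 were let-7g (-18.01, 17 minor reads beside 3039939 major reads) and miR-146a (-15.10, 0 minor reads). The minor arm of let-7g was seen in 4 libraries and that of miR-21a in 7. Among hairpins whose minor arm was seen in at least 7 of 8 libraries, a cut that miR-21a just meets, miR-21a had the lowest ratio, just below let-7i. The ratio of miR-21a ranged over 4.99 log2 units between libraries, 14th widest of the 82 (median 3.53).

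**Figure D5:**
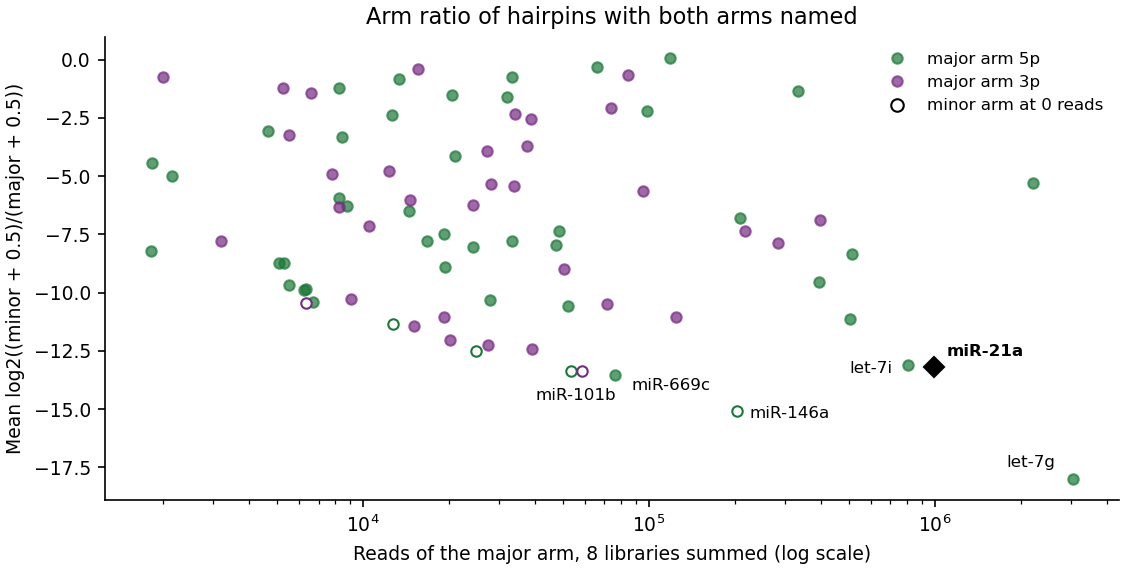
Mean over 8 libraries of log2((minor + 0.5)/(major + 0.5)) for the 82 hairpins with both arms named and at least 100 reads in every library, against reads of the major arm on a log axis; green points have a 5p and purple a 3p major arm, and open points have 0 minor reads. miR-21a (diamond, -13.18) lies near the lower edge beside let-7i (-13.11), above let-7g and miR-146a.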

How the data were processed

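Small RNA of sorted splenic CD8+ T cells was read in 8 libraries. The authors deposited 1 table of expected counts per mature miRNA and precursor, without normalization; per the submitters' processing notes the build was mm10, while the aligner is, like the counter and the annotation, not given in the sources used here. Rows of 1 name were summed and rounded to whole counts. In edgeR 4.0.16 (R 4.3.3), filterByExpr (minimum count 10, minimum total 15) kept 382 of 1978 names, both miR-21a arms included, and TMM set the scale. Quasi-likelihood F tests with robust estimation were adjusted over the 382 by Benjamini-Hochberg, at 0.05, in a 4-group fit (4 residual degrees of freedom) or an additive fit of subset and genotype (5). SE is the absolute log2 change over the square root of F, and approximate intervals are 1.96 SE. The biological coefficient of variation was 0.457 for miR-21a-5p and 0.971 for miR-21a-3p in the additive fit. Arm ratios used a pseudocount of 0.5 and exact permutation tests (scipy 1.17.1), and an edgeR model of both arms with library effects over 130 hairpins with at least 10 minor reads. DESeq2 1.42.0 was an alternative. Both models were run on simulated data and scored only for MP against TN over both genotypes. The contrasts of groups were not covered there. Hairpins were folded with RNAfold 2.7.2. Shares carry 95% Wilson or exact intervals, and a count of 0 allows up to 3 counts; both cover counting error only. No batch or date is given beyond replicate numbers, which the labels do not tie to shared animals. The miRNAs named beside the members are, by rule, the 5 most correlated with miR-21a-5p, its neighbours in level and in arm ratio, and list members past the threshold or with the 2 smallest p; a few more were named after their values were seen. The members, lists and tests were chosen with earlier results of these data known.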

Additional observations from a re-analysis of the deposited data

Results flagged for a closer look

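The arm ratio of miR-21a was listed because the observed 3p shares of MP and TN were in opposite order in the genotypes. The 3p share was lower in both MP libraries than in both TN libraries in mCre, and higher in both MP libraries than in both TN libraries in WT, as counted. How many other hairpins meet this rule was not counted, so whether the pattern is unusual is not known. For levels, separation with MP higher held for 26.2% of miRNAs in WT and 29.6% in mCre. The count model put the difference of these effects, mCre minus WT, at -4.95 on the log2 scale (edgeR adjusted p = 0.111), which did not pass. Its WT side rests on 1 read of miR-21a-3p in TN replicate 1 and 0 in TN replicate 2. The 0 allows up to 17.7 per 100000, more than the 7.67 of WT MP replicate 1, so the order in WT is not settled at this depth. In miR-29a-3p, the libraries labelled mCre TN replicate 2 and WT TN replicate 2 also ran against their labels. The order in each genotype is read with the labels as given, and why these libraries ran against them was not tested. Without both libraries, the shifts of the mean log2 ratio were -0.81 in mCre and 2.48 in WT, with 1 TN library in each. Among 12 sets of 4 libraries (each subset and each genotype, for both levels and the 3p share), no library stood far enough from the other 3 to be listed.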

How the results depend on the processing

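Of 256 values computed under alternatives for 21 results, 233 kept their direction and their side of the threshold, and all values here are log2 changes. Only 1 of the 21 results passed in its main fit, so most kept values are results that stayed short of the threshold. The 2 against 2 permutation tests cannot go below 0.333, and values without a p were scored as short of the threshold. A call was lost in 9 values, all of miR-21a-5p in MP against TN over both genotypes. miR-21a-5p in MP against TN over both genotypes was positive throughout and lost its call in edgeR with total count scaling (1.65) and with the replicate number as a block (1.90, adjusted p = 0.0733). It ran from 1.59 to 1.98 with each library left out. Within WT it passed in DESeq2 (2.03) and ran from 1.72 to 2.76 with left-out libraries, passing without WT TN replicate 1; within mCre it ran from 1.01 to 1.92, passing without WT TN replicate 1 (56 of 435 miRNAs called) or replicate 2 (41 of 437). Left-out libraries took miR-21a-5p in mCre against WT from -0.60 to 0.25 in MP and from -0.019 to 0.31 over both subsets, where it was -0.043 without both TN replicate 2 libraries. miR-21a-3p ran from -1.09 to 0.40 in MP against TN in mCre, and was 0.40 without both TN replicate 2 libraries, and from -0.90 to 0.15 in mCre against WT in MP. The arm ratio in MP against TN over both genotypes was -0.050 and -0.40 with pseudocounts of 1 and 2, and ran from -0.44 to 1.23 with left-out libraries, at -0.44 without WT TN replicate 1 and -0.30 without WT TN replicate 2. Leaving out both TN replicate 2 libraries, and the difference of arm effects between genotypes, were added after seeing the data. Same-numbered deviations correlated from -0.32 to 0.407 between groups. With 2 libraries a group and TN replicate 2 labels in doubt, these values cannot decide whether replicate numbers pair the libraries. The block took the calls in MP against TN over both genotypes to 2, beside 9 without it. Apart from that of miR-21a-5p there, the block changed no call of either arm. For the same comparison DESeq2 made 26 calls, and edgeR made 19 when low counts were not filtered. With a library left out edgeR made 0 to 41, the 41 without WT TN replicate 2. It made 49 once both TN replicate 2 libraries were removed. Depth limits miR-21a-3p, with 0 to 39 reads per library, and not miR-21a-5p.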

Other observations

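With the mean of each group subtracted, which leaves only the difference between the libraries of each group, the miRNAs closest to miR-21a-5p were miR-3087-3p (r = 0.991), miR-26b-3p (0.982) and miR-181c-3p (0.982), averaging 3.17, 7.49 and 8.69 CPM. These correlations rest on 4 differences and on low counts. On the same measure miR-21a-3p stood at r = -0.106, rank 238 of 381.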
